A study of Mus musculus with 8 samples.

Results

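The 34 genes described here act in the synthesis, uptake, storage and efflux of cholesterol. They were taken by gene symbol from the deposited counts, and all 34 were present among the 25239 symbols counted and among the 12977 genes with enough reads to be tested. By role they comprised 19 genes of the synthesis pathway, 4 genes that control the transcription factor SREBP2 or encode it, 4 genes of uptake and intracellular transport, 3 genes of esterification and 4 genes of efflux. Bulk RNA-Seq was performed on the livers of 8 adult male Smo flox/flox mice on a C57Bl6/J background, all fed for 6 weeks with the CDA-HFD, a high-fat diet without choline and with defined amino acids that induces steatohepatitis. All received an adeno-associated virus (AAV8) through the tail vein 1 week before sacrifice. In 4 mice it carried luciferase (controls, whose genotype the labels give as WT although they carry the floxed alleles too), and in 4 mice it carried Cre recombinase (Smo-KO). The TBG promoter of the vector is active in hepatocytes, so that Smo, an obligatory component of the Hedgehog pathway, was left intact in the other cells of the liver.

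Smo was measured first, as a check of the labels. It stood at 8.17, 8.49, 8.74 and 8.21 CPM (the read count of a gene normalized to the library total after TMM scaling) in control livers and at 5.67, 3.93, 4.27 and 4.37 CPM in Smo-KO livers 1 to 4. The groups did not overlap and the Smo-KO mean was 54.3% of control. An exact, two-sided permutation test gave p = 0.0286, which no comparison of 4 with 4 mice can go below. In edgeR's quasi-likelihood test with adjustment over all genes, the log2 fold change of Smo was -0.88 (SE 0.16, adjusted p = 0.0957). Whole liver was sequenced, so that fewer cells of a type and less RNA per cell cannot be told apart, here or in any value below.

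Reads on genes numbered 9177277 to 9999732 in control livers and 8203299 to 9543675 in Smo-KO livers (exact permutation test, two-sided p = 0.257), and the lowest count of any member in any liver was 97 reads, for Mylip in Smo-KO liver 3. That liver stood apart from the other 7 in several respects. It had the fewest reads on genes and the largest share of counted reads on no annotated feature, 9.68%, against 8.97% to 9.26% in the other Smo-KO livers and 7.56% to 9.32% in controls. Tat, an enzyme of tyrosine breakdown in hepatocytes, stood at 243 CPM in it and between 562 and 1276 CPM in the other livers. The other hepatocyte markers went both ways in that liver. Ahsg at 4739, Apoh at 1632 and Cyp2e1 at 4382 CPM were not low. Hnf4a, at 446 CPM, was the lowest of the 8 livers, but Smo-KO liver 4 was close to it at 456 CPM. Fgb, at 1750 CPM, lay below every control, and it was lower still in Smo-KO livers 1 (1736 CPM) and 4 (1618 CPM). The sum of all 6 hepatocyte markers in Smo-KO liver 3, 13192 CPM, lay within the control range of 11579 to 14931 CPM. Their mean log2 CPM, taken as a difference from the control mean, was -0.31 in that liver, the lowest of the 8. The 34 cholesterol genes together took 0.3178% of its reads, against 0.3945% to 0.4165% in the other Smo-KO livers and 0.4161% to 0.4458% in controls. Over all 8 livers this share was 0.430% ± 0.0130 in the 4 controls and 0.383% ± 0.0442 in the 4 Smo-KO livers (mean and SD, p = 0.0571 by exact two-sided permutation). The main counts and many of the log2 fold changes are therefore also given without Smo-KO liver 3. Its low share of reads on the members is among the reasons for this choice. Negative log2 fold changes that come nearer to 0 without this liver are thus in part given by the choice.

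Hepatocytes make cholesterol from acetyl-CoA, take it up from lipoproteins, store it as esters and secrete it into bile or onto nascent lipoproteins. Transcription of the synthesis enzymes is driven by SREBP2, which the escort protein SCAP carries from the endoplasmic reticulum to the Golgi, where proteases release its active part. INSIG1 and INSIG2 hold SCAP back in the endoplasmic reticulum when sterols are plentiful. Oxysterols activate the liver X receptors, which drive the efflux transporters.

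Among the 34 members, 0 passed an adjusted p of 0.05 in edgeR's test, as did 0% of all genes tested. The lowest adjusted p of a member was 0.140 (edgeR), for Sqle. At an unadjusted p under 0.05, 6 members were lower in Smo-KO livers (Sqle, Sc5d, Dhcr7, Srebf2, Insig1 and Insig2), which is 17.6% of the members, while 7.15% of all genes were lower at that level. No member was higher at that level, against 6.7% of all genes. For 3 members (Sqle, Dhcr7 and Insig1), or 8.82%, each Smo-KO liver lay below each control liver, against 4.34% of all genes, and for 0 members each lay above, against 3.03%. DESeq2's Wald test gave an adjusted p under 0.05 to 1 member in the lower direction (Sqle), against 0.702% of the genes it tested, and to 0 in the higher direction, against 0.66%. Irrespective of p, 23 members had a log2 fold change below 0 and 11 above, with a median of -0.12, and 50.1% of all genes lay below 0.

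**Figure D1:**
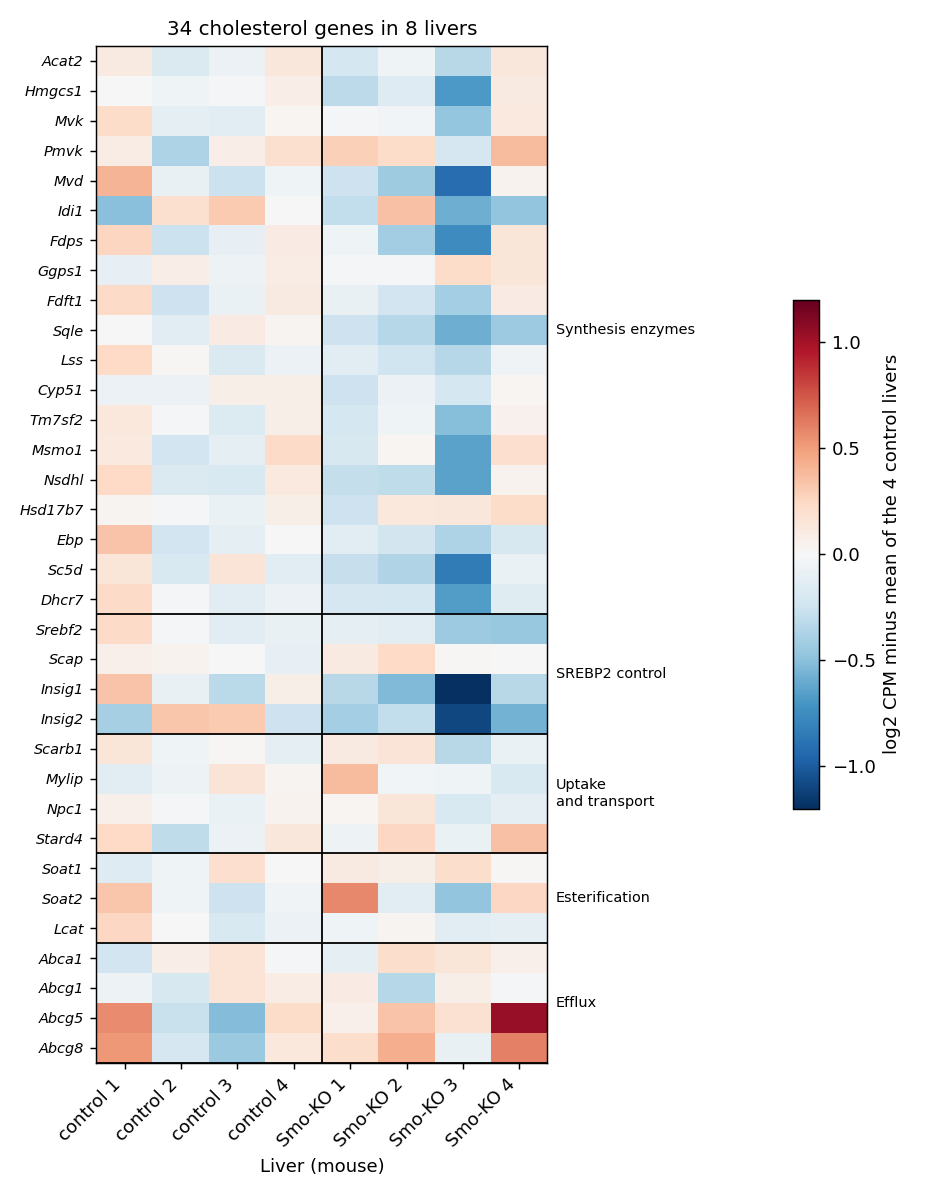
Each row is 1 of the 34 genes, grouped by role, and each column 1 liver. The color gives log2 CPM minus the mean of the 4 control livers. The deepest blues are those of Insig1, Insig2, Mvd and Sc5d in Smo-KO liver 3, which was the lowest of the 8 livers in 20 of the 34 genes.

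The differences were not spread evenly over the mice. Smo-KO liver 3 was the lowest of all 8 livers for 20 of the 34 members, and control liver 1 was the highest for 12. Without Smo-KO liver 3, 19 members lay below 0, the median of the members was -0.06, and 3 members (Sqle, Insig1 and Insig2, 8.82%) kept an unadjusted p under 0.05 in edgeR's test, against 5.07% of all genes in that fit. Without control liver 1 the median was -0.07, and the same 3 members kept that level, against 7.29% of all genes, a share near their own. Sqle, Insig1 and Insig2 were under that level whichever of the 8 mice was left out.

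**Figure D2:**
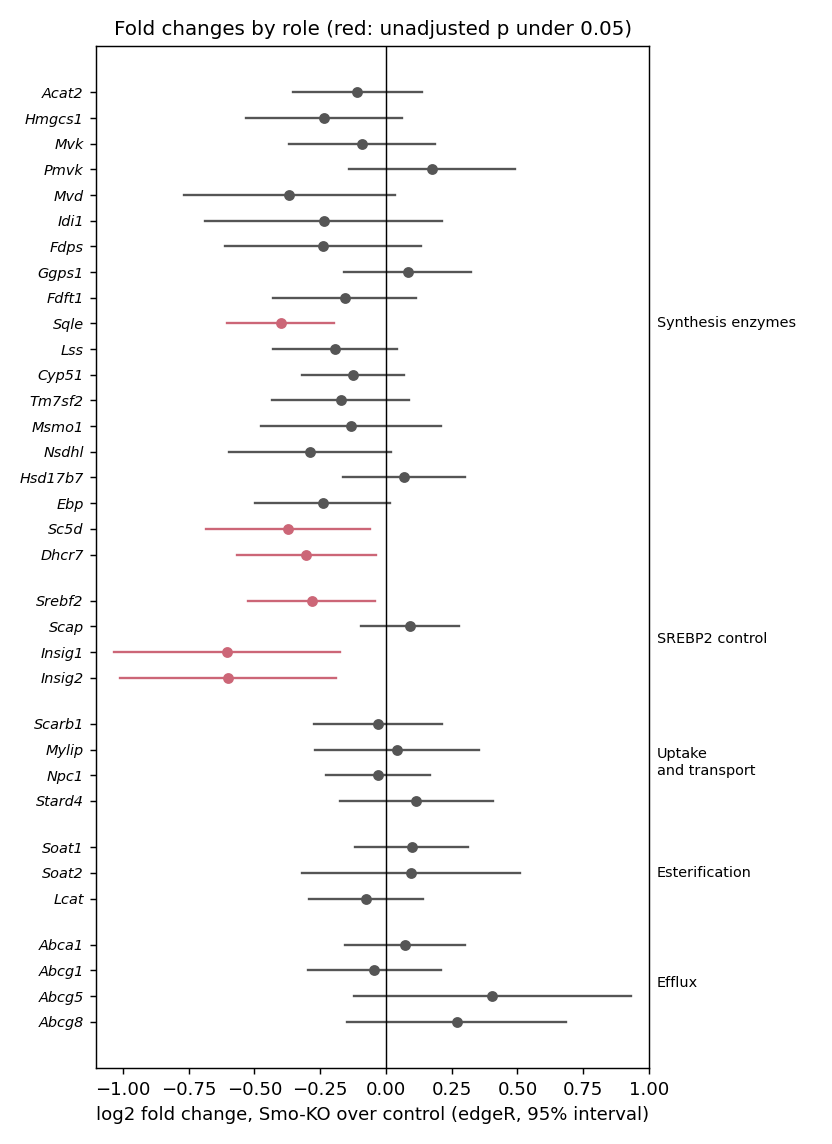
Points are edgeR log2 fold changes, Smo-KO minus control, of the 34 genes grouped by role, and bars are 95% confidence intervals. The intervals of Sqle, Sc5d, Dhcr7, Srebf2, Insig1 and Insig2 lie below 0, and those of the other 28 genes cross it.

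The synthesis pathway opens with acetoacetyl-CoA thiolase (Acat2) and HMG-CoA synthase (Hmgcs1) and runs through mevalonate to the isoprenoids. Of its 19 genes measured here, 16 had a log2 fold change below 0 and 3 above, against 50.1% of all genes below 0, with a median of -0.19 and a range of -0.40 to 0.18. Sqle, Sc5d and Dhcr7 (15.8% of the 19) were lower at an unadjusted p under 0.05, against 7.15% of all genes. None passed edgeR's adjusted threshold.

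Sqle encodes squalene epoxidase, which puts the first oxygen onto squalene and is a rate-limiting enzyme of the pathway. It stood at 110, 99.5, 117 and 111 CPM in control livers 1 to 4 and at 92.0, 86.3, 72.8 and 80.6 CPM in Smo-KO livers 1 to 4. The highest Smo-KO liver was below the lowest control liver, and the spread within each group was small, with 109 ± 7.43 and 82.9 ± 8.18 CPM (SD, n = 4 each). The log2 fold change was -0.40 (SE 0.09), with adjusted p = 0.140 in edgeR's test and 0.0264 in DESeq2's.

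Sc5d encodes the desaturase that acts late in the pathway, and Dhcr7 the reductase that turns 7-dehydrocholesterol into cholesterol. Sc5d was at 152, 121, 153 and 126 CPM in control livers and at 113, 107, 76.6 and 130 CPM in Smo-KO livers. The groups overlapped, since Smo-KO liver 4 lay above 2 of the control livers, and Smo-KO liver 3 was lowest. Its log2 fold change was -0.37 (SE 0.14, edgeR adjusted p = 0.286). Dhcr7 was at 163, 137, 126 and 132 CPM in control livers and at 120, 120, 87.1 and 125 CPM in Smo-KO livers. The groups did not overlap, although Smo-KO liver 4 and control liver 3 were less than 1 CPM apart. Its log2 fold change was -0.30 (SE 0.12, edgeR adjusted p = 0.304). Without Smo-KO liver 3 the log2 fold changes were -0.24 for Sc5d and -0.20 for Dhcr7. Both genes then lost the unadjusted level. They also lost it without control liver 1, at -0.32 for Sc5d and -0.22 for Dhcr7, and Sc5d lost it without control liver 3, at -0.31.

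In the mevalonate segment, the log2 fold changes (edgeR) were -0.11 for Acat2, -0.24 for Hmgcs1, -0.09 for mevalonate kinase (Mvk), 0.18 for phosphomevalonate kinase (Pmvk) and -0.37 for the decarboxylase Mvd. Among the isoprenoid enzymes they were -0.24 for the isomerase Idi1, -0.24 for farnesyl diphosphate synthase (Fdps), 0.08 for Ggps1, whose geranylgeranyl product leaves the sterol branch, and -0.16 for squalene synthase (Fdft1). From lanosterol onward they were -0.19 for lanosterol synthase (Lss), -0.13 for the demethylase Cyp51, -0.17 for the reductase Tm7sf2, -0.13 for the methyl oxidase Msmo1, -0.29 for Nsdhl, 0.07 for Hsd17b7 and -0.24 for the isomerase Ebp. Without Smo-KO liver 3 the values nearer to 0 included -0.04 for Acat2, -0.11 for Hmgcs1, -0.22 for Mvd, -0.13 for Idi1, -0.10 for Fdps, -0.08 for Fdft1, -0.07 for Tm7sf2 and -0.18 for Nsdhl, and the signs of Mvk (0.02) and Msmo1 (0.005) turned. Without control liver 1 they included -0.21 for Mvd, -0.15 for Fdps, -0.08 for Fdft1, -0.11 for Lss and -0.11 for Ebp. Other mice counted as well, with Pmvk at 0.07 without control liver 2 and Idi1 at -0.48 without Smo-KO liver 2. Pmvk moved away from 0 without Smo-KO liver 3, to 0.28. Leaving out Smo-KO liver 4 moved several values away from 0, to -0.39 for Fdps, -0.52 for Mvd, -0.41 for Nsdhl, -0.37 for Hmgcs1, -0.26 for Msmo1 and -0.20 for Acat2, and the first 4 of these then had an unadjusted p under 0.05 in edgeR's test. Hsd17b7 was at 0.01 without Smo-KO liver 4 and at 0.17 without Smo-KO liver 1. With all 8 livers, the 95% confidence intervals of these 16 genes all included 0. That of Mvd ran from -0.77 to 0.03 and so included differences larger than the estimate of Sqle, whereas that of Cyp51 ran from -0.32 to 0.07.

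Mouse by mouse, the mean log2 CPM of the 19 synthesis genes, taken as a difference from the control mean, was 0.11, -0.11, -0.05 and 0.05 in control livers 1 to 4 and -0.17, -0.13, -0.46 and 0.02 in Smo-KO livers 1 to 4. Smo-KO liver 4 thus lay within the control range and Smo-KO liver 3 far below it. Smo-KO liver 3 was the lowest of the 8 livers for 15 of the 19 genes, whereas Smo-KO liver 4 was below the lowest control for 2 and the highest of the 8 livers for 4. Without Smo-KO liver 3, 14 of the 19 genes lay below 0, with a median of -0.10. The 2 genes for which Smo-KO liver 4 lay below all controls were Sqle and Dhcr7.

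Of the 4 genes around SREBP2, 3 were lower at the unadjusted level, at which 7.15% of all genes were lower, and 1, Scap, was not, with a median log2 fold change of -0.44 (-0.33 without Smo-KO liver 3). Insig1, itself a known SREBP2 target, had 251, 185, 157 and 207 CPM in control livers and 156, 136, 77.3 and 156 CPM in Smo-KO livers. All Smo-KO livers lay below all control livers, with control liver 3 and Smo-KO livers 1 and 4 nearly level at the boundary. The means were 200 ± 39.3 and 132 ± 37.4 CPM, 65.7% of control, with a log2 fold change of -0.60 (SE 0.20, edgeR adjusted p = 0.231), or -0.42 without Smo-KO liver 3. Insig2, the paralog, had 241, 398, 395 and 266 CPM in control livers and 239, 257, 148 and 213 CPM in Smo-KO livers. Control livers 2 and 3 were high and control livers 1 and 4 low, and control liver 1 lay below Smo-KO liver 2, so that the groups overlapped. The means were 325 ± 83.1 and 214 ± 47.8 CPM, with a log2 fold change of -0.60 (SE 0.19, edgeR adjusted p = 0.217), or -0.46 without Smo-KO liver 3.

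The paralogs ran in opposite directions among the control mice. The ratio of Insig2 to Insig1 reads was 0.961, 2.14, 2.51 and 1.28 in control livers 1 to 4 and 1.53, 1.89, 1.91 and 1.36 in Smo-KO livers 1 to 4. Control liver 1 had the most Insig1 and the least Insig2 of the controls, and control liver 3 had the least Insig1 and nearly the most Insig2. The Smo-KO ratios lay inside the control range.

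Srebf2, which encodes SREBP2, was at 105, 88.8, 82.3 and 84.2 CPM in control livers and at 82.7, 81.6, 66.3 and 65.5 CPM in Smo-KO livers. Smo-KO livers 3 and 4 were low, and Smo-KO liver 1 was level with control liver 3. The log2 fold change was -0.28 (SE 0.11, edgeR adjusted p = 0.292), and the unadjusted level was lost without control liver 1, Smo-KO liver 3 or Smo-KO liver 4. Scap ranged from 112 to 124 CPM in control livers and from 120 to 140 CPM in Smo-KO livers, with a log2 fold change of 0.09 and a 95% confidence interval of -0.09 to 0.28. The mean log2 CPM of the 4 genes, as a difference from the control mean, was 0.06, 0.07, -0.03 and -0.09 in control livers and -0.19, -0.18, -0.72 and -0.34 in Smo-KO livers. This mean did not overlap between the groups, but no share of all genes was computed for such a mean. Of the single genes only Insig1 did not overlap, while 4.34% of all genes did not in the lower direction. Smo-KO liver 4 was below the lowest control in 3 of the 4 genes, Scap being the exception.

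**Figure D3:**
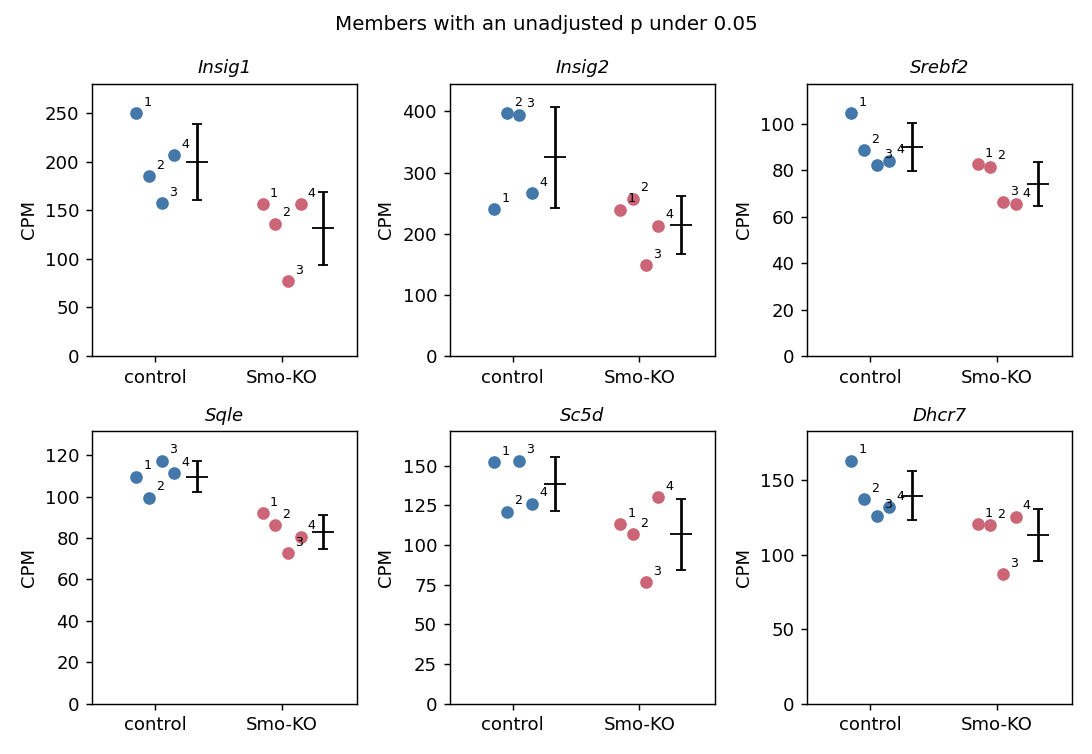
CPM (vertical axis, from 0) of the 6 genes with an unadjusted p under 0.05 in each of the 4 control and 4 Smo-KO livers, numbered by mouse, with the mean and SD beside them. Sqle, Insig1 and Dhcr7 show no overlap between the groups, and Smo-KO liver 3 is the lowest of the 8 livers in each gene except Srebf2, where it is level with Smo-KO liver 4.

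SREBP2 binds sterol regulatory elements in promoters, often beside a CCAAT box bound by NF-Y. RefSeq promoter windows (GRCm38.p6, from 250 bases before to 50 bases after a start) were at hand for 26 of the 34 members. CCAAT, searched on both strands, occurred in the windows of 23 of these 26 genes (88.5%), against 41.1% of 27025 genes with a window. CACNCCAC, the core of a sterol regulatory element, occurred in 3 of 26 (Insig1, Hmgcs1 and Acat2, 11.5%), against 7.12% of all genes, and TCACNCCAC, which contains it, in 1 of 26 (Hmgcs1, 3.85%), against 1.44%. A match is only a run of letters, and its absence says nothing about binding. The stretches before the starts of Insig1 (chr5:28071162-28071362, plus strand), Insig2 (chr1:121332590-121332839, minus strand) and Hmgcs1 (chr13:119690101-119690350, plus strand) are printed 5′ to 3′ on the strand of the gene, since both Insig genes had the lowest log2 fold changes of the 34 and Hmgcs1 carries the full motif. Capitals mark CCAAT, its opposite-strand form ATTGG, and the TCACNCCAC match.
Insig1: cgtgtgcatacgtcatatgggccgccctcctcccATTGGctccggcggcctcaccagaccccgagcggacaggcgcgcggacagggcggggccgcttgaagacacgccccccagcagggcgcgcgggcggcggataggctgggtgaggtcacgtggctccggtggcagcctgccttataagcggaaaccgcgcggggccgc
Insig2: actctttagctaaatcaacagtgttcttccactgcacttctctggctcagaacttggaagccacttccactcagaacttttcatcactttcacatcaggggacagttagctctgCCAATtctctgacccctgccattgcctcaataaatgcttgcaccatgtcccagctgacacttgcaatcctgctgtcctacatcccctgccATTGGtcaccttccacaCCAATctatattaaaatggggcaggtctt
Hmgcs1: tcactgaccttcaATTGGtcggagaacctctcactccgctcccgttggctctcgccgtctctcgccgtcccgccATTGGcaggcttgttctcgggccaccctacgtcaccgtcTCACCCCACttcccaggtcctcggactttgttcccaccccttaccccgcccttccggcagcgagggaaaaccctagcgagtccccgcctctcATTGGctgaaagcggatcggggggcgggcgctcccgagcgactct
The Insig1 match to CACNCCAC lies from 9 to 2 bases before its RefSeq start on the opposite strand, beyond the end of the stretch shown. Insig2 had 3 CCAAT matches and no CACNCCAC in its window. The log2 fold change of Hmgcs1, whose window holds the full motif, was -0.24 (95% confidence interval -0.53 to 0.06), and its levels were 352, 338, 344 and 370 CPM in control livers and 282, 314, 217 and 378 CPM in Smo-KO livers. Smo-KO liver 4 was the highest of the 8 livers in Hmgcs1 and Smo-KO liver 3 the lowest. The log2 fold change was -0.11 without Smo-KO liver 3 and -0.37 without Smo-KO liver 4, where its unadjusted p was 0.0113 in edgeR's test.

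The 4 genes of uptake and intracellular transport had a median log2 fold change of 0.006, which ran from -0.06 (without Smo-KO liver 1) to 0.07 (without Smo-KO liver 3), and none had an unadjusted p under 0.05. Stard4, a cytosolic sterol carrier and SREBP2 target, was at 70.4, 48.0, 56.6 and 65.6 CPM in control livers and at 57.2, 70.9, 56.5 and 76.0 CPM in Smo-KO livers, with the groups overlapping throughout (log2 fold change 0.12, 95% confidence interval -0.18 to 0.41). The log2 fold change was 0.02 without control liver 2, 0.03 without Smo-KO liver 4 and 0.20 without control liver 1. Npc1, which exports cholesterol from lysosomes, was at 255, 241, 232 and 253 CPM in control livers and at 249, 271, 216 and 227 CPM in Smo-KO livers. Its log2 fold change was -0.03 with a 95% confidence interval of -0.23 to 0.17, and no group stood above the other. The lipoprotein receptor Scarb1 (-0.03, interval -0.27 to 0.21) and Mylip, a ubiquitin ligase that degrades lipoprotein receptors (0.04, interval -0.27 to 0.35), gave log2 fold changes of similar size. None of these 4 intervals reached down to the estimates of Insig1 and Insig2.

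Esterification was covered by Soat1 and Soat2, which esterify cholesterol inside cells, and by Lcat, which does so on lipoproteins in plasma. Their median log2 fold change was 0.09, which turned to -0.07 without Smo-KO liver 1. Soat1 was at 34.4, 37.0, 44.2 and 38.6 CPM in control livers and at 41.4, 40.4, 44.5 and 38.8 CPM in Smo-KO livers, and Lcat at 420, 355, 313 and 337 CPM and at 341, 361, 324 and 325 CPM. Both genes overlapped between the groups, with log2 fold changes of 0.10 (95% confidence interval -0.12 to 0.31) and -0.08 (-0.29 to 0.14). Soat2 had a log2 fold change of 0.09 and a wide interval of -0.32 to 0.51, with the highest value of the 8 livers in Smo-KO liver 1 (158 CPM) and the lowest in Smo-KO liver 3 (76.2 CPM). The log2 fold change of Soat2 was 0.25 without Smo-KO liver 3 and -0.10 without Smo-KO liver 1.

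The 4 efflux genes had a median log2 fold change of 0.17, which ran from 0.11 (without Smo-KO liver 4) to 0.24 (without control liver 1). Abca1 and Abcg1, liver X receptor targets that load cholesterol onto apolipoproteins and high-density lipoprotein, had values of 0.07 (95% confidence interval -0.15 to 0.30) and -0.04 (-0.30 to 0.21). That of Abca1 was 0.002 without control liver 1 and 0.14 without Smo-KO liver 1. Abcg5 and Abcg8 together form the transporter that secretes sterols into bile. Abcg5 was at 70.3, 39.2, 32.99 and 55.2 CPM in control livers and at 49.4, 60.0, 53.9 and 98.1 CPM in Smo-KO livers. Control livers 2 and 3 were low, Smo-KO liver 4 was high, and control liver 1 lay above the other 3 Smo-KO livers. Abcg8 was at 83.6, 50.6, 42.8 and 63.7 CPM in control livers and at 67.3, 78.9, 54.8 and 88.8 CPM in Smo-KO livers, with the same order of the control mice. The log2 fold changes were 0.41 (SE 0.24) and 0.27 (SE 0.19), with edgeR adjusted p = 0.485 and 0.562. Both estimates hung on single mice. Without control liver 1 they were 0.62 and 0.47, with an unadjusted p under 0.05 in edgeR's test, without Smo-KO liver 4 they were 0.14 and 0.16, and without control liver 3 they were 0.26 and 0.14.

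The pair is transcribed divergently from neighboring starts on chromosome 17, and the 109 bases between the RefSeq starts (chr17:84683012-84683120, printed on the plus strand, the strand of Abcg8) are shown because both genes share them as upstream sequence. No capitals appear, since neither CCAAT nor CACNCCAC occurs in this stretch. CCAAT does occur outside it in the windows of both genes. In the Abcg8 window it lies from 175 to 171 and from 114 to 110 bases before the start. The latter match directly adjoins the stretch, at the start of Abcg5.
Abcg5-Abcg8: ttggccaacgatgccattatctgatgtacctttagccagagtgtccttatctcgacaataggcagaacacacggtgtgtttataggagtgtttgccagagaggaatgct
The ratio of Abcg8 to Abcg5 reads was 1.19, 1.29, 1.298 and 1.15 in control livers and 1.36, 1.31, 1.02 and 0.905 in Smo-KO livers. Smo-KO liver 4, highest in both genes, had the lowest ratio. The annotated exons of the genes share 82 bases on opposite strands, 3.02% of the exon bases of Abcg5 and 2.19% of those of Abcg8, and whether counting used strand is not given in the sources used here.

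**Figure D4:**
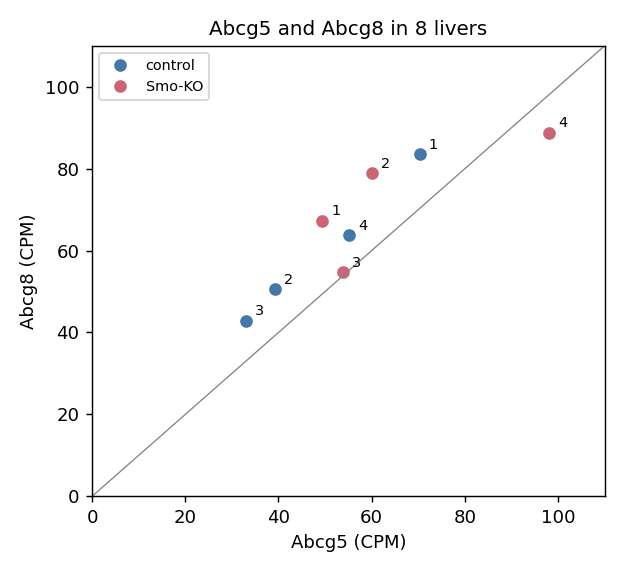
Abcg8 (vertical axis) against Abcg5 (horizontal axis) in CPM, 1 point per liver, numbered by mouse. Control livers 2 and 3 are lowest in Abcg5, Smo-KO liver 4 is highest in both, and the groups overlap.

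Set side by side, the roles differed in which mice were low. The efflux genes were, on average, at 0.20, -0.15, -0.16 and 0.11 in control livers and at 0.06, 0.16, 0.08 and 0.42 in Smo-KO livers (mean log2 CPM minus the control mean). Uptake genes were at 0.11, 0.13, -0.16 and -0.01 in Smo-KO livers 1 to 4 and esterification genes at 0.21, -0.01, -0.13 and 0.05. Smo-KO liver 3 was the lowest of the Smo-KO livers in synthesis, control, uptake and esterification, and it was not the lowest in efflux, where Smo-KO liver 1 was.

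**Figure D5:**
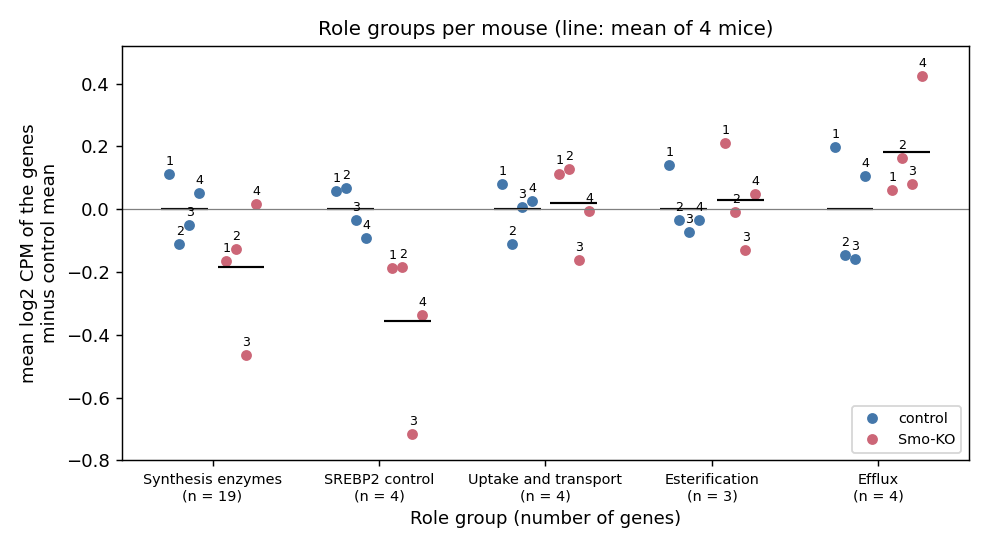
Mean log2 CPM of the genes of each role, minus the mean of the 4 control livers, in each liver, with numbers for the mice. The mean of the 4 genes of SREBP2 control does not overlap between the groups, with Smo-KO liver 3 at -0.72, and the other roles overlap. Of these 4 genes singly only Insig1 does not overlap, and no share of all genes was computed for such a mean.

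Per kilobase of the longest annotated transcript, so that genes can be compared, Lcat was the highest of the 34 in control livers at 265 CPM per kilobase, followed by Insig2 (120), Ebp (116), Hmgcs1 (101) and Scarb1 (95.1). Ggps1 (3.45), Mylip (4.02) and Soat1 (4.60) were lowest. Insig2 exceeded Insig1 (74.2 CPM per kilobase) in the mean of the control livers, and the order of the paralogs reversed in control liver 1, whose ratio is given above. Some members share exon sequence with other annotated genes, most of all Fdps (26.7% of exon bases), Fdft1 (18.3%, with Ctsb on the opposite strand), Scap (13.2%), Hmgcs1 (12.1%) and Tm7sf2 (12.1%), and reads there could have been left uncounted or given to the other gene.

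Of 30 further genes in 3 lists around the pathway, 2 (6.67%) were lower and 3 higher at an unadjusted p under 0.05 in edgeR's test, against 7.15% and 6.7% of all genes, and 0 passed the adjusted threshold. For 2 of the 30 each Smo-KO liver lay below each control liver, against 4.34% of all genes. For 2 each lay above, against 3.03%. Sterol sensing and SREBP processing was represented by 9 genes, of which 8 lay below 0 and none had an unadjusted p under 0.05. The smallest p values belonged to Mbtps1, the Golgi protease that makes the first cut in SREBP2 (log2 fold change -0.13, SE 0.08), and the ubiquitin ligase Rnf139 (-0.18, SE 0.13).

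Other SREBP2 targets and electron donors of the pathway were 9 genes, 6 below 0 and 3 above. Por, the reductase that passes electrons to squalene epoxidase and cytochromes P450, was at 369, 216, 190 and 299 CPM in control livers and at 406, 504, 464 and 392 CPM in Smo-KO livers. All Smo-KO livers lay above all controls, in the direction opposite to Sqle, with a log2 fold change of 0.72 (SE 0.18, adjusted p = 0.146 in edgeR's test and 0.0122 in DESeq2's). Aacs, which activates acetoacetate for lipid synthesis, was at 59.7, 39.6, 35.7 and 44.0 CPM in control livers and at 52.1, 97.2, 80.0 and 61.8 CPM in Smo-KO livers. Only control liver 1 reached into the Smo-KO range, and the log2 fold change was 0.70 (SE 0.19, adjusted p = 0.172 in edgeR's test and 0.0323 in DESeq2's).

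Intracellular sterol handling was represented by 12 genes, 7 below 0 and 5 above. Nceh1, a cholesteryl ester hydrolase, was at 66.7, 69.6, 76.3 and 77.9 CPM in control livers and at 85.9, 99.7, 120 and 93.1 CPM in Smo-KO livers. Osbp, an oxysterol-binding protein that moves sterol between endoplasmic reticulum and Golgi, was at 89.1, 86.0, 92.5 and 78.7 CPM in control livers and at 76.6, 66.4, 50.7 and 60.8 CPM in Smo-KO livers. Neither gene overlapped between the groups, and Smo-KO liver 3 was the most extreme in both. The log2 fold changes were 0.46 (SE 0.11) for Nceh1, with adjusted p = 0.143 in edgeR's test and 0.0216 in DESeq2's, and -0.44 (SE 0.12) for Osbp, with 0.162 and 0.0565. Gramd1b, a sterol carrier between plasma membrane and endoplasmic reticulum, did not overlap either, with 10.4 ± 1.37 CPM in control and 8.24 ± 0.532 CPM in Smo-KO livers (SD, n = 4 each, log2 fold change -0.34, edgeR adjusted p = 0.306). In this list 2 genes did not overlap in the lower direction and 1 in the higher, against 4.34% and 3.03% of all genes. The unadjusted p of Gramd1b was 0.0564 in DESeq2's test. In edgeR's test it was under 0.05 in 3 of the 8 fits that leave out 1 mouse. Without control liver 3 its log2 fold change was -0.26.

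Markers of the cells in the tissue were read beside these values. The 6 hepatocyte markers summed to 12957 CPM in control and 13420 CPM in Smo-KO livers (exact permutation test, two-sided p = 0.571), with Ahsg the most abundant at 4048 to 4960 CPM, as fits the labelled tissue. Macrophage markers summed to 1299 and 1419 CPM (p = 0.114 in the same exact test), with 2 of 7 higher at the unadjusted level (6.7% of all genes), Lyz2, the most abundant, and Trem2. T and NK lymphocyte markers were low in level and summed to 43.3, 40.4, 35.5 and 48.6 CPM in control livers and 19.4, 16.8, 29.0 and 28.5 CPM in Smo-KO livers (exact permutation p = 0.0286), and the 4 of 6 that could be tested were all lower at the unadjusted level (7.15% of all genes). Nkg7 was the most abundant of these 4 and the only one of them whose groups overlapped. Of all genes, 4.34% did not overlap in the lower direction. Summed markers of stellate cells and fibroblasts (most abundant Col3a1), sinusoidal endothelial cells (Clec4g), cholangiocytes (Spp1) and neutrophils (Csf3r) gave exact permutation p values of 0.0857, 0.343, 0.429 and 0.629, and the neutrophil marker Ly6g was at 0 reads in all livers. The stellate sum was 681 CPM in control and 582 CPM in Smo-KO livers, and the endothelial sum 151 and 127 CPM. All 5 endothelial log2 fold changes lay below 0, against 50.1% of all genes. Col1a1 (log2 fold change -0.36), 1 of 6 stellate markers, and Pecam1 (-0.50), 1 of 5 endothelial markers, were lower at the unadjusted level (7.15% of all genes). No tested cholangiocyte or neutrophil marker was. The part of macrophages, lymphocytes and other cells in the values of Nceh1, Soat1, Abca1, Abcg1 and the other members was not tested.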

How the data were processed

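Liver RNA (NEBNext Ultra library kit, Illumina NovaSeq) was counted by the authors, who deposited raw counts of reads per gene symbol for each liver. The submitters' notes name fastp, STAR 2.7.5, featureCounts 2.0.1 and build GRCm38, although each list closes with entries styled as in htseq-count output. The annotation and the use of strand are not given in the sources used here. These entries, for reads on no feature (7.56% to 9.68%) or on more than 1 gene (2.45% to 2.61%), entered neither library sizes nor tests. Without molecular identifiers the depth describes counting error only, with 3 reads worth 0.297 to 0.366 CPM.

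The deposited counts were tested with edgeR 4.0.16 under R 4.3.3 (filterByExpr, TMM, glmQLFit and glmQLFTest on genotype alone, p adjusted by Benjamini-Hochberg across 12977 genes) and, as an alternative, DESeq2 1.42.0. SE were derived from the F statistic of edgeR. Log2 CPM used a prior count of 2. Exact permutation tests ran over the 70 assignments of 4 of 8 mice. Within groups, counts of no pair of livers agreed within sampling noise (chi-square per degree of freedom 7.76 to 17.5). Lengths and exon overlaps came from GENCODE M21, promoter sequence from RefSeq. The procedure was tested on simulated data, in which the changed genes had larger log2 fold changes than any member. Recovery of differences as small as those of the members was therefore not examined. Figures were drawn with matplotlib 3.10.9.

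All members are named. Those with an unadjusted p under 0.05 or groups without overlap, and the 2 of each role with the smallest p, are given per mouse. Of the 3 further lists, the genes under that level or else the 2 with the smallest p are named. Hmgcs1 per mouse, Tat, Apoh, Cyp2e1, Hnf4a, Fgb, Trem2, Col1a1, Pecam1 and Ly6g were added after values were seen. Members and lists were chosen with earlier results of these data known. Alternatives were other size factors and filters, DESeq2, the replicate number as a block, and each mouse left out in turn.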

Additional observations from a re-analysis of the deposited data

Results flagged for a closer look

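Each group of 4 livers was examined for a mouse far from the other 3, in the 34 members and Smo. Of 70 groups, 1 held such a mouse, where chance alone gives about 3.5. Dhcr7 stood at 87.1 CPM (87.07) in Smo-KO liver 3 and between 119.7 and 125.5 CPM in the other Smo-KO livers. The same liver was the lowest of the 8 in 20 of the 34 members, so that the value of Dhcr7 is 1 of many low values in that mouse.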

How the results depend on the processing

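With 4 mice a group, single mice set several counts. Over the fits that leave out 1 mouse each, members lower at an unadjusted p under 0.05 numbered 3 to 9 (3 without control liver 1 or Smo-KO liver 3, 9 without Smo-KO liver 4), where 7.29%, 5.07% and 5.48% of all genes were lower, and members higher 0 to 2 (2 without control liver 1, against 7.57% of all genes). Members without overlap numbered 3 to 6 lower (6 without Smo-KO liver 4, against 5.61% of all genes) and 0 to 1 higher (3.84% to 8.06% of all genes), and the median of the esterification genes ran from -0.0744 (without Smo-KO liver 1) to 0.11 (without Smo-KO liver 2). Genes with an adjusted p under 0.05 among all tested numbered 0 to 78 (78 without Smo-KO liver 1, 5 without control liver 1, 4 without Smo-KO liver 3), 61 with no filter and 163 in DESeq2's test, which called 1 member (Sqle). Smo passed the adjusted threshold with no filter (-0.88), in DESeq2's test (-0.87) and without Smo-KO liver 1 (-0.997), within a range of -0.997 to -0.81 over the mice left out.

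Signs turned only among values near 0. Over the mice left out, log2 fold changes ran from -0.165 to 0.0157 for Mvk, -0.256 to 0.0054 for Msmo1, -0.0902 to 0.0192 for Npc1 and -0.0937 to 0.0592 for Scarb1, each highest without Smo-KO liver 3. Scarb1 was at 0.0221 without control liver 1. Lcat ran from -0.13 to 0.0131 (without control liver 1), Mylip from -0.0902 (without Smo-KO liver 1) to 0.114, Soat2 from -0.0961 (without Smo-KO liver 1) to 0.246, and Abcg1 from -0.103 to 0.0455 (without Smo-KO liver 2), with 0.0166 without control liver 3. The cause was not tested.

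The mice of both groups share only replicate numbers. Deviations of same-numbered mice correlated at 0.104, 0.187, 0.0611 and 0.113, and 5 of 8 mice correlated best with their own number. With the replicate number as a block, 11 members were lower at the unadjusted level, against 8.45% of all genes (Mvd, Nsdhl, Ebp, Fdps and Hmgcs1 beside the 6 without the block), and 8 genes of all tested passed the adjusted threshold. Other size factors and the filter of at least 10 counts in every liver kept the same 6 members under the unadjusted level, and without a filter Mvd and Nsdhl joined them.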
